A study of Homo sapiens with 9 samples.

Results

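The genes described here encode the subunits of the proteasome, together with its activators, its inhibitor and the chaperones that assemble it. They were taken by name from a table of read counts, as every gene whose symbol is PSMA, PSMB, PSMC, PSMD, PSME, PSMF or PSMG followed by a number, without the interferon-inducible subunits PSMB8 and PSMB9. The rule found 46 genes among the 60683 listed. Of these, 44 had at least 10 counts summed over the libraries and were tested, among 22672 genes tested in all. The remaining pair, PSMA8, a subunit of the testis proteasome, and PSMB11, a subunit of the thymus proteasome, had 0 counts in each of the 9 libraries. In Hep3B cells, a human liver cancer line, RNA was sequenced after 24 hours in 3 conditions with 3 biological replicates each. The conditions were DMSO vehicle at 20% O2, DMSO vehicle at 1% O2, and 32-134D, an inhibitor of the hypoxia-inducible factors HIF-1 and HIF-2, at 1% O2. The labels give no dose of 32-134D, and no library here came from cells given the compound at 20% O2. RNA came from whole cultures, so a change in the number of cells that express a gene and a change in RNA per cell cannot be told apart.

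Total counts ran from 6013980 to 40549699 per library, and PSMB10, the scarcest tested member, had 12 counts in the library where it was lowest. The common biological coefficient of variation over all genes was 10.5%. CA9, a HIF-1 target that serves to check the labels, rose from a mean of 27.9 to 579.9 in hypoxia in units of CPM, counts scaled to a common library size, and was at 56.6 CPM with 32-134D. The hepatocyte marker albumin (ALB) was at mean levels from 8116 to 9536 CPM over the groups. Of 6 hepatocyte markers 2, APOB and AFP, fell in hypoxia, and with 32-134D 1 of the 6 rose and 2 fell past both thresholds. The 6 summed to between 15706 and 17026 CPM in vehicle at 20% O2, 10835 and 13510 CPM in vehicle at 1% O2 and 10551 and 15738 CPM with 32-134D. Without APOB the sums were 11770 to 12450, 10412 to 13094 and 7844 to 11854 CPM, and the 3 groups overlapped. The leukocyte and endothelial markers PTPRC, CD3E and CDH5 had at most 7 counts over all libraries, and PECAM1 had 131. PECAM1 fell in hypoxia, from a mean of 0.862 to 0.211 CPM, and was higher with 32-134D than with vehicle at 1% O2, by 1.93 on the log2 scale. The part of these markers in the results below was not tested. Replicate 2 of vehicle at 20% O2 was the smallest library. Replicate 3 of 32-134D stood apart from its group. Its counts differed from those of replicates 1 and 2 by chi-square values of 49.9 and 43.95 per gene, and those differed from each other by 2.28. Replicate 1 of vehicle at 20% O2 also stood apart, by 7.17 and 15.9, against 1.70 between the other replicates. So did replicate 1 of vehicle at 1% O2, by 10.3 and 15.8, against 2.82. Each of these vehicle libraries was left out only on its own. Replicate 2 of vehicle at 20% O2 and replicate 3 of 32-134D, the 2 doubted libraries, were also left out together, a choice made after seeing the data. Then 7 members in place of 10 were called higher in hypoxia, and 3 stayed the count of those called lower.

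The proteasome degrades proteins that carry ubiquitin chains. Its barrel, the 20S core, has outer rings of alpha subunits that control entry and inner rings of beta subunits, some of which cut the substrate. The 19S particle caps the barrel. Its base holds a ring of ATPases that unfold the substrate, and its lid holds the enzyme that removes ubiquitin. In cells with sufficient oxygen, the VHL ubiquitin ligase marks the alpha subunits of the HIFs for degradation by this machine, and in hypoxia they escape it.

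Levels differ widely among these genes. CPM were computed with the TMM method, which scales libraries by a trimmed mean of log ratios, and divided by exon length, and on this scale PSMA7 of the alpha ring was the most abundant member in vehicle at 20% O2, at 155 ± 15.5 CPM per kb (SD, n = 3). It was followed by the beta subunits PSMB4 (150.2 ± 18.6), PSMB3 (133 ± 16.7), PSMB5 (131 ± 14.7) and PSMB6 (119 ± 14.99 CPM per kb). The range of each of these 5 overlapped that of its neighbour, and the ranges of PSMA7 and PSMB6 did not overlap. At the other end stood PSMD9 (1.84 ± 0.06), PSMG4 (1.24 ± 0.08) and PSMB10 (1.07 ± 0.07 CPM per kb). Between the highest and the lowest lay 145-fold, and 32 of the 43 neighbouring pairs in the order overlapped. The scale depends on the annotated exon length of each gene and on the counting of reads over exons shared with other genes. Same-strand genes share 34.8% of the exon bases of PSMB10 and 14.1% of those of PSMA6, so both levels are uncertain. Even within a ring the levels differed. PSMA5, an alpha subunit like PSMA7 and without such overlap, was at 13.4 ± 1.49 CPM per kb, and PSMA6 was at 6.24 ± 0.80 CPM per kb. Summed per kb, the 19S genes stood at 0.694, 0.765 and 0.781 of the 20S genes in vehicle at 20% O2, at 0.748, 0.723 and 0.722 in vehicle at 1% O2, and at 0.760, 0.766 and 0.7997 with 32-134D. Libraries at 20% O2 overlapped both other groups in this ratio, and the 32-134D group lay above vehicle at 1% O2 without overlap.

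**Figure D1:**
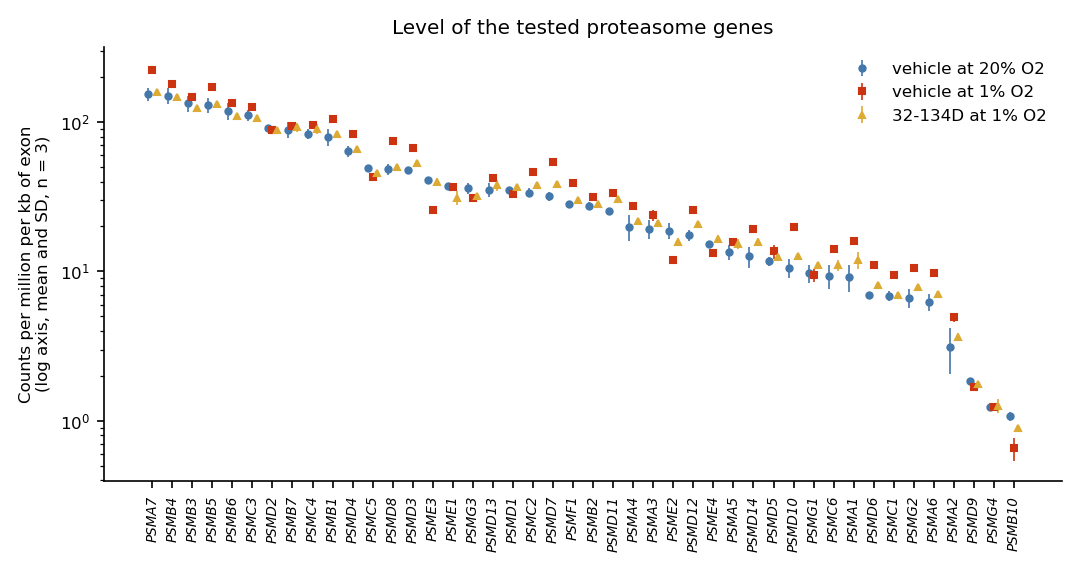
Level of the 44 tested proteasome genes in CPM per kb of exon, on a log axis, ordered by their mean in vehicle at 20% O2, with the mean and SD of 3 libraries for each condition. PSMA7 and the beta subunits PSMB4, PSMB3, PSMB5 and PSMB6 stand highest and PSMB10 lowest, 145-fold apart. The order shifts little between conditions compared with that span.

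In hypoxia the alpha ring and the lid of the proteasome were higher and most activators were lower. Between vehicle at 1% O2 and vehicle at 20% O2, 27 of the 44 tested members rose and 6 fell at an FDR below 0.05 by edgeR, while 11 did neither. Over all genes tested, 27.9% rose and 25.6% fell by the same rule. With a fold change above 1.5 required as well, 10 members rose, against 19.5% of all genes, and 3 fell, against 20.3%. The 10 were PSMA1, PSMA2, PSMA6, PSMC6, PSMD6, PSMD7, PSMD8, PSMD10, PSMD14 and PSMG2, and the 3 were PSMB10, PSME2 and PSME3. The median log2 fold change was 0.29 over the 44 members and 0.001 over all genes tested. The count past both thresholds lay near the background for rises and under it for falls, while the count past the FDR alone lay above the background for rises.

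The sizes of these changes depend on how libraries are put on a common scale. With the total library size in place of TMM, the median of all genes in hypoxia moved to -0.21 and that of the members to 0.07, so the members stood 0.28 above all genes on this scale and 0.29 on the TMM scale. On the total library size scale 17 members rose by the FDR alone and 10 fell, and 1 member, PSMD10, rose past both thresholds. As a share of all counts, the members together took 0.659%, 0.582% and 0.576% in vehicle at 20% O2, 0.629%, 0.619% and 0.623% in vehicle at 1% O2, and 0.615%, 0.603% and 0.633% with 32-134D, and the 3 groups overlapped. After a correction of each library for trends with the length and base composition of genes, the members stood 0.18 above all genes, and 18 rose by the FDR alone, none of them past 1.5-fold. By DESeq2, 7 members were called higher. Leaving out replicate 3 of vehicle at 20% O2 reduced the number called higher from 10 to 4, which were PSMA1, PSMD6, PSMD7 and PSMD10. Without replicate 1 of vehicle at 1% O2, 3 members fell by the FDR alone in place of 6.

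**Figure D2:**
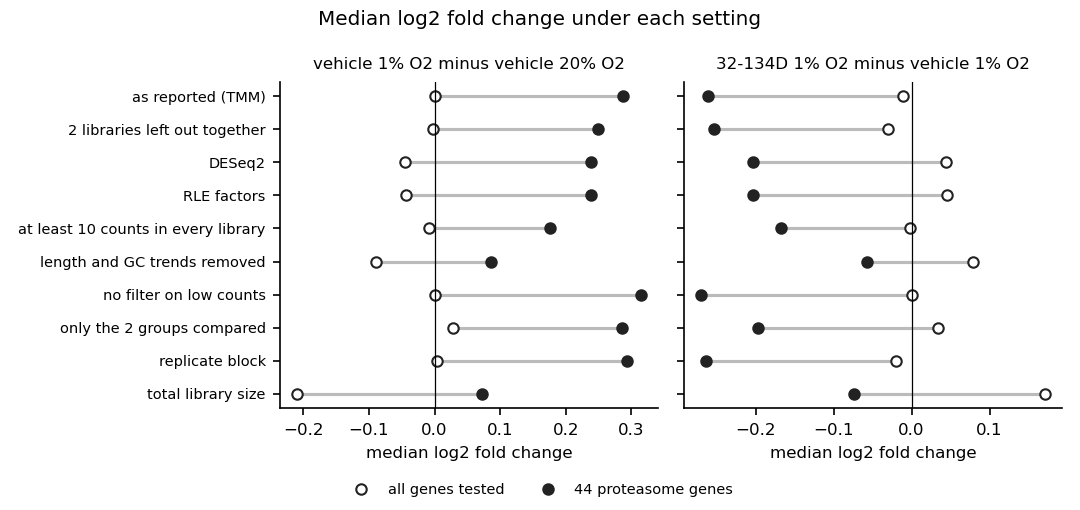
Median log2 fold change of the 44 proteasome genes (filled) and of all genes tested (open) under each way of processing the counts, for hypoxia on the left and for 32-134D in hypoxia on the right. Both medians shift together with the scaling, and the members stay above all genes in hypoxia and below them with 32-134D under each setting shown.

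With 32-134D at 1% O2, most of these genes were lower than with vehicle at 1% O2, and 3 of the activators were higher. At an FDR below 0.05, 25 members fell and 3 rose, against 25.5% and 21.9% of all genes tested, and 16 did neither. Past both thresholds stood 1 member on each side, PSMD10 lower and PSME3 higher, against 13.7% and 16.2% of all genes. The median was -0.26 over the members and -0.01 over all genes tested. On the scale of the total library size the members' median was -0.07 against 0.17 for all genes, 8 members fell and 10 rose by the FDR alone, with none of the 8 past 1.5-fold. By DESeq2, 0 members fell past both thresholds, against 1 by edgeR, also at an unadjusted p. The count of 1 lower became 2 without replicate 1 of vehicle at 1% O2, and the count of 1 higher became 2 without replicate 3 of that group. PSMD10 also lost its call without replicate 1 of vehicle at 20% O2 or replicate 3 of vehicle at 1% O2. PSME3 lost its call without replicate 3 of 32-134D, at a log2 fold change of 0.57. By the FDR alone, the count of members that fell was 14 without replicate 3 of vehicle at 1% O2 and 15 without replicate 1 of 32-134D, and the count that rose was 5 without replicate 1 of vehicle at 20% O2. This comparison and the hypoxia comparison share the 3 vehicle libraries at 1% O2, so opposite signs in them are not independent, and the values are given side by side.

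Against vehicle at 20% O2, cells given 32-134D at 1% O2 had no member past both thresholds by edgeR or by DESeq2, where 3.52% of all genes were called in either direction. At an unadjusted p, 11 members were higher and 3 lower without a fold change threshold, and 0 with one. Over all genes tested the same rule gave 14.7% higher and 9.91% lower without a fold change threshold and 7.34% in either direction with one. By the FDR alone 3 lid genes were higher, PSMD7 (log2 fold change 0.25, SE 0.07), PSMD11 (0.26, SE 0.07) and PSMD12 (0.26, SE 0.08), against 7.81% of all genes, and 0 were lower, against 2.44%. The count of 3 changed with the libraries used. Dropping replicate 1 of vehicle at 20% O2 gave 13, and it was 0 without replicate 2 or replicate 3 of that group, without replicate 2 of vehicle at 1% O2, or when only the groups compared were fitted. It was 5 without replicate 3 of vehicle at 1% O2 and 1 without replicate 1 or replicate 2 of 32-134D. The median over the members was 0.08, against -0.003 over all genes.

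**Figure D3:**
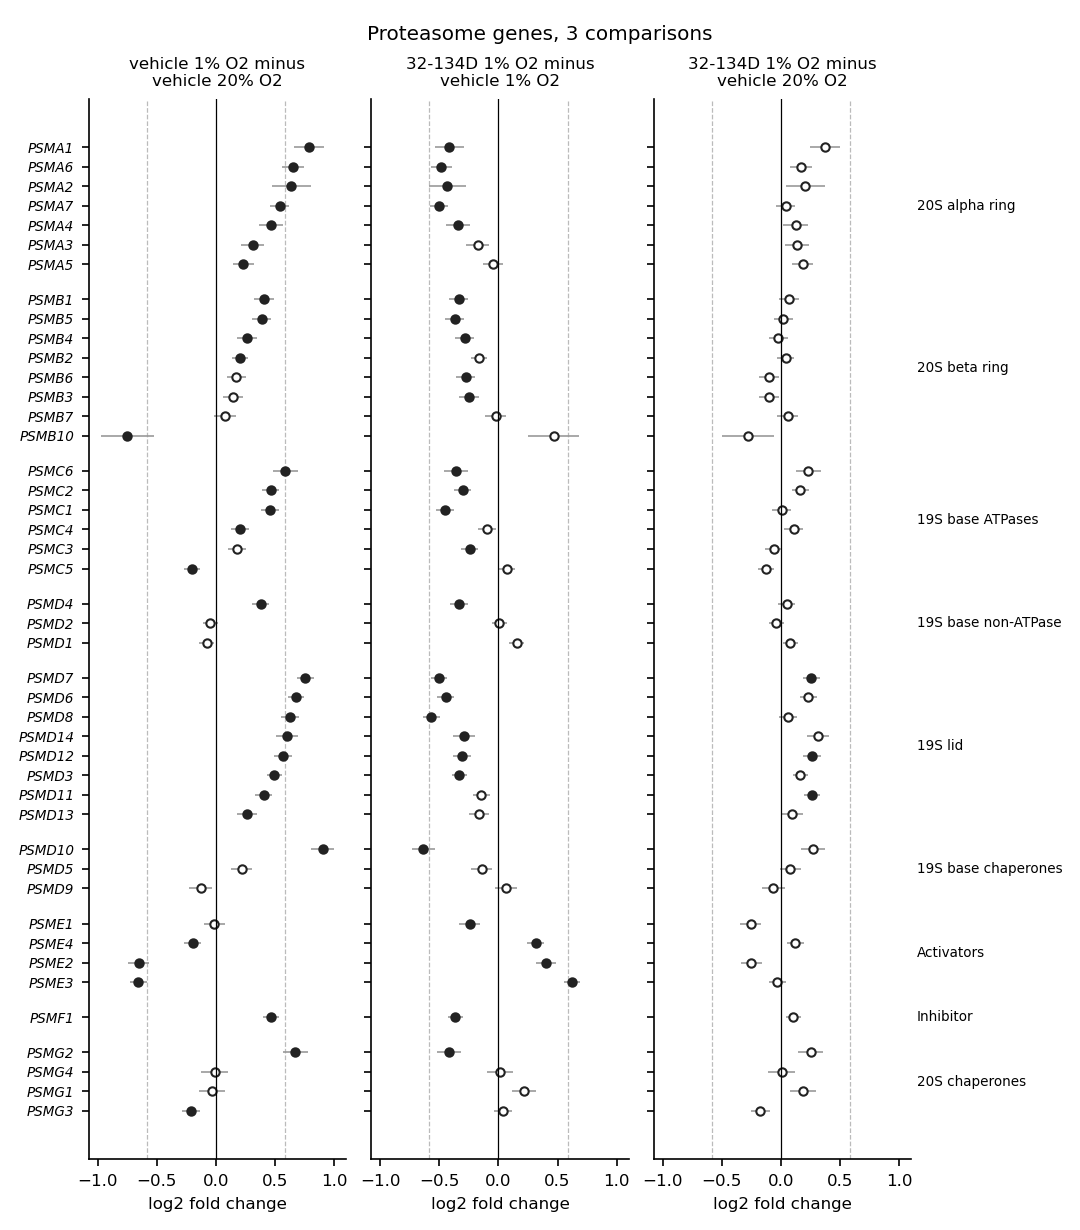
Log2 fold change and its SE for each of the 44 tested genes, by structural class, in the 3 comparisons, where filled points passed an FDR of 0.05 by edgeR, open points did not, and dashed lines mark a 1.5-fold change. The alpha ring and the lid lie to the right of 0 in hypoxia and to the left with 32-134D, activators PSME2, PSME3 and PSME4 lie on the opposite sides, and few genes differ from 20% O2 with 32-134D.

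In the paragraphs that follow, levels are TMM-scaled CPM given for replicates 1, 2 and 3 of vehicle at 20% O2, then of vehicle at 1% O2, then of 32-134D at 1% O2. Fold changes are log2 values from edgeR with their SE, for hypoxia first (vehicle at 1% O2 against vehicle at 20% O2) and then for 32-134D (against vehicle at 1% O2).

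All 7 tested alpha ring genes rose in hypoxia by the FDR, with a median log2 fold change of 0.54, and 5 of the 7 fell with 32-134D. On the scale of the total library size, PSMA3, PSMA4 and PSMA5 did not pass in hypoxia (FDR 0.460, 0.0583 and 0.887). On that scale PSMA1, PSMA2 and PSMA4 did not pass with 32-134D (FDR 0.149, 0.223 and 0.245). Alpha subunits form the gated outer rings of the core. PSMA1 had the largest rise of the class, from 37.1, 24.8 and 28.6 CPM to 51.6, 55.4 and 50.8 CPM, with 36.1, 36.6 and 45.7 CPM in cells given 32-134D. Its changes were 0.79 (SE 0.13, FDR 9.34e-05) and -0.42 (SE 0.12, FDR 0.0113). PSMA1 libraries at 1% O2 did not overlap those of either other group, while the 20% O2 and 32-134D groups did, since replicate 1 at 20% O2 stood above the other libraries of its group. PSMA6 went from 46.5, 38.9 and 36.4 CPM to 61.0, 65.2 and 65.2 CPM and stood at 46.4, 44.9 and 45.5 CPM with 32-134D, changes of 0.65 (SE 0.09, FDR 2.02e-05) and -0.48 (SE 0.09, FDR 3.31e-04). PSMA2 went from 22.8, 11.9 and 15.1 CPM to 26.7, 24.1 and 28.0 CPM and stood at 19.9, 20.5 and 17.97 CPM with 32-134D, changes of 0.64 (SE 0.16, FDR 0.00395) and -0.43 (SE 0.16, FDR 0.0327). Both genes have the pattern of PSMA1, with replicate 1 at 20% O2 the highest of its group. PSMA7 had the largest fall with 32-134D in the class. It was at 302, 256 and 254 CPM, then 373, 403 and 405 CPM, then 285, 280.3 and 268 CPM, changes of 0.54 (SE 0.08, FDR 3.08e-05) and -0.50 (SE 0.08, FDR 8.17e-05). PSMA5 changed least in the class. Its levels were 86.5, 70.0 and 74.2 CPM, then 94.2, 87.0 and 90.3 CPM, then 85.0, 82.5 and 95.3 CPM, and its changes were 0.23 (SE 0.09, FDR 0.0369) and -0.05 (SE 0.09, FDR 0.682). PSMA4 and PSMA3 lay between, at 0.47 and 0.31 in hypoxia. The sign of PSMA5 and of PSMA3 in hypoxia turned when trends over length and GC were removed, to -0.13 and -0.17. Protein-coding genes annotated on the same strand share 24.7% of the exon bases of PSMA1 and 14.6% and 14.1% of those of PSMA2 and PSMA6. The overlapping genes had 4, 45 and 26 counts over all libraries. The counts of PSMA1, PSMA2 and PSMA6 are thus uncertain, and the share of their reads affected was not measured.

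The beta ring moved less than the alpha ring. Of 8 tested genes 4 rose in hypoxia and 1 fell, with a median log2 fold change of 0.19 that turned to -0.03 on the scale of the total library size and to -0.001 with trends over length and GC removed. With 32-134D 5 fell, with a median of -0.26. On the scale of the total library size, PSMB1, PSMB2, PSMB4 and PSMB5 did not pass in hypoxia (FDR 0.0773, 0.911, 0.651 and 0.0882). On that scale PSMB1, PSMB3, PSMB4, PSMB5 and PSMB6 did not pass with 32-134D (FDR 0.168, 0.618, 0.360, 0.0789 and 0.414). None of the rises and none of the falls with 32-134D in this ring thus passed there. PSMB5, which carries the chymotrypsin-like activity that proteasome drugs block, went from 259, 225 and 208 CPM to 290.2, 307 and 308 CPM and stood at 240.1, 227 and 234 CPM with 32-134D. Its changes, 0.39 (SE 0.08, FDR 7.87e-04) and -0.37 (SE 0.08, FDR 0.00136), were the largest among the catalytic subunits of the standard core. PSMB6, the caspase-like subunit, was at 196, 166 and 154 CPM, then 186, 199 and 197 CPM, then 163, 159.8 and 157 CPM. Its difference in hypoxia, 0.17 (SE 0.08, FDR 0.0943), did not pass the test, and it fell by 0.28 with 32-134D (SE 0.08, FDR 0.0126). PSMB7, the trypsin-like subunit, was at 182, 145 and 151 CPM, then 159.7, 166 and 179 CPM, then 161, 158 and 179 CPM. The 3 groups overlapped for PSMB7, with differences of 0.08 (SE 0.09, FDR 0.502) and -0.02 (SE 0.09, FDR 0.866). Of the structural beta subunits, PSMB1 rose most, by 0.40 (SE 0.08, FDR 8.22e-04), from 207, 164 and 168 CPM to 234, 236 and 243 CPM, and was at 190.0, 184 and 191 CPM with 32-134D. PSMB4 and PSMB2 rose by 0.26 and 0.20, while PSMB3 was at 0.14 (FDR 0.174). Signs of PSMB1, PSMB2 and PSMB4 in hypoxia turned to values between -0.06 and 0 with trends over length and GC removed, and that of PSMB2 also on the scale of the total library size.

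PSMB10 went against its ring. It is the immunoproteasome subunit that takes the place of PSMB7, and it was scarce, at 1.94, 1.88 and 2.13 CPM at 20% O2. It fell in hypoxia to 0.981, 1.23 and 1.42 CPM, with a log2 fold change of -0.75 (SE 0.23, FDR 0.0115), and stood at 1.65, 1.68 and 1.65 CPM with 32-134D, 0.47 above vehicle at 1% O2 (SE 0.21, FDR 0.0882). None of the 3 groups overlapped for PSMB10, yet its rise with 32-134D passed the FDR only under 4 of 18 alternatives, among them the total library size (0.65). Its fall in hypoxia did not pass the FDR without replicate 1 of vehicle at 1% O2 (-0.60) or replicate 3 of vehicle at 20% O2 (-0.68). A protein-coding gene annotated on the same strand, AC040162.1, covers 34.8% of the PSMB10 exon bases and had 118 counts. The share of PSMB10 reads affected was not measured. The ratio of PSMB10 to PSMB7, which is free of the scaling between libraries, was 1.03%, 1.26% and 1.36% per kb at 20% O2, 0.592%, 0.712% and 0.764% in vehicle at 1% O2, and 0.988%, 1.03% and 0.888% with 32-134D. In this ratio both 1% O2 groups kept apart from each other, and the 32-134D libraries overlapped those at 20% O2.

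Of the 6 ATPases of the 19S base, which unfold substrates and thread them into the core, 4 rose in hypoxia and 1 fell, with a median of 0.33, and 4 fell with 32-134D, with a median of -0.27. PSMC6 rose from 84.3, 60.3 and 65.3 CPM to 104, 105 and 107 CPM and was at 79.7, 77.1 and 90.3 CPM with 32-134D, changes of 0.59 (SE 0.11, FDR 2.42e-04) and -0.36 (SE 0.10, FDR 0.0101). It lay just past the fold threshold in hypoxia and passed it in 5 of 18 alternatives. PSMC1 had the largest fall with 32-134D of the ATPases. Its levels were 45.9, 41.1 and 40.2 CPM, then 55.9, 58.8 and 59.9 CPM, then 43.9, 42.2 and 41.5 CPM, with changes of 0.46 (SE 0.08, FDR 1.56e-04) and -0.45 (SE 0.08, FDR 1.82e-04). Exons of NRDE2 on the opposite strand cover 75.8% of its exon bases, and since the strand setting of the counting is not stated, reads of the pair cannot be told apart. PSMC5 went the other way from 232, 221 and 216 CPM to 189, 189 and 204 CPM, and was at 202, 199.8 and 210.4 CPM with 32-134D, for changes of -0.20 (SE 0.07, FDR 0.0185) and 0.07 (SE 0.07, FDR 0.391). FTSJ3 overlaps 19.5% of its exon bases on the opposite strand. PSMC2 rose by 0.46 and PSMC4 by 0.20, PSMC3 was at 0.18 (FDR 0.0520), and the sign of PSMC4 turned on the scale of the total library size. On that scale PSMC2, PSMC3 and PSMC6 did not pass with 32-134D (FDR 0.230, 0.574 and 0.205). With trends over length and GC removed, PSMC2 was at 0.03 in hypoxia and at -0.005 with 32-134D.

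The other subunits of the base differed from one another. PSMD4, a receptor for ubiquitin chains, rose from 211, 183 and 183 CPM to 255, 249.8 and 247 CPM and was at 196, 191 and 209.6 CPM with 32-134D, changes of 0.38 (SE 0.07, FDR 4.85e-04) and -0.33 (SE 0.07, FDR 0.00162). The large scaffold subunits did not move with it. PSMD1 was at 179.7, 179 and 184 CPM, then 178, 169.5 and 167 CPM, then 197, 189.5 and 186 CPM, for differences of -0.08 (SE 0.06, FDR 0.338) and 0.15 (SE 0.06, FDR 0.0603). PSMD2 was within 472 and 513 CPM in all 9 libraries, with differences of -0.05 (SE 0.06, FDR 0.543) and 0.01 (SE 0.06, FDR 0.931). For both scaffold genes the vehicle libraries at 20% O2 and at 1% O2 did not overlap, although neither passed the FDR with TMM, and on the scale of the total library size both were lower in hypoxia, at -0.29 and -0.26.

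All 8 lid genes rose in hypoxia, with a median of 0.58, and 6 fell with 32-134D, with a median of -0.32. On the scale of the total library size, PSMD13 did not pass the FDR in hypoxia (0.690). On that scale PSMD3, PSMD12 and PSMD14 did not pass it with 32-134D (0.0822, 0.235 and 0.417). PSMD7, a scaffold that binds the deubiquitinase PSMD14, had the largest rise of the class. It was at 94.4, 82.4 and 86.6 CPM at 20% O2, at 144, 150.3 and 152 CPM at 1% O2 and at 105, 103 and 107 CPM with 32-134D. Those levels gave changes of 0.76 (SE 0.07, FDR 3.54e-07) and -0.50 (SE 0.07, FDR 2.86e-05), a 1.69-fold rise, and the 3 groups did not overlap. A transcript annotated on the opposite strand, AC009120.2, covers 30.7% of the PSMD7 exon bases and had 959 counts over the 9 libraries. PSMD14, the enzyme that cuts ubiquitin chains off the substrate, went from 114, 83.4 and 93.8 CPM to 149, 148 and 147 CPM and was at 117, 116 and 130.1 CPM with 32-134D, changes of 0.60 (SE 0.10, FDR 8.29e-05) and -0.29 (SE 0.09, FDR 0.0205). PSMD6 went from 65.97, 60.8 and 62.7 CPM to 103, 101 and 99.8 CPM and was at 71.4, 73.0 and 78.5 CPM, changes of 0.68 (SE 0.07, FDR 1.08e-06) and -0.45 (SE 0.07, FDR 7.72e-05). The 3 groups did not overlap for either gene. PSMD8 had the largest fall of the lid with 32-134D. It was at 159, 157 and 135 CPM, then 225, 228 and 240.2 CPM, then 156, 153 and 158 CPM, changes of 0.63 (SE 0.07, FDR 4.67e-06) and -0.57 (SE 0.07, FDR 1.73e-05). Its levels with 32-134D lay within those at 20% O2. PSMD11, described as limiting for assembly of the complete particle, changed least with 32-134D, at -0.14 (SE 0.07, FDR 0.103), after a rise of 0.40 (SE 0.07, FDR 1.62e-04). Its libraries were at 191, 172 and 187 CPM, then 247, 239.6 and 241 CPM, then 213, 212 and 234 CPM, with the 32-134D group between the others. PSMD13 rose least, by 0.26 (SE 0.09, FDR 0.0188), from 189.6, 159 and 155 CPM to 195, 205 and 204 CPM, and stood at 174, 168 and 196 CPM with 32-134D. PSMD12 and PSMD3 lay in between, at 0.57 and 0.49 in hypoxia and -0.31 and -0.33 with 32-134D.

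Ratios within a library need no scaling between libraries. The ratio of PSMD7 to PSMD2 counts, a pair chosen after its values were seen, was 0.192, 0.161 and 0.176 at 20% O2, 0.302, 0.311 and 0.311 in vehicle at 1% O2, and 0.214, 0.218 and 0.216 with 32-134D. A pair in the core chosen in the same way, PSMA1 to PSMB7, gave 0.204, 0.172 and 0.189, then 0.323, 0.334 and 0.284, then 0.225, 0.232 and 0.256. In both pairs the 3 groups were apart from each other, with vehicle at 1% O2 highest and 32-134D between. Choosing a gene that rose over one that did not sets vehicle at 1% O2 above vehicle at 20% O2 in advance. The place of 32-134D is a description, since the pairs were chosen with all values known.

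The chaperones that assemble the base comprise PSMD10, PSMD9 and PSMD5, which bind separate ATPase modules before they join. PSMD10, also called gankyrin and described as an oncoprotein of liver cancer, was the member that changed most. It was at 30.5, 23.9 and 23.6 CPM at 20% O2, 50.2, 47.4 and 48.4 CPM at 1% O2 and 32.2, 31.8 and 30.0 CPM with 32-134D. It rose 1.87-fold in hypoxia, a log2 fold change of 0.90 (SE 0.10, FDR 1.93e-06), and fell 1.55-fold with 32-134D, a log2 fold change of -0.63 (SE 0.09, FDR 6.09e-05). Its libraries with 32-134D overlapped those at 20% O2, with a difference of 0.27 (SE 0.10, FDR 0.106). PSMD5 was at 51.8, 48.2 and 55.4 CPM, then 68.1, 56.4 and 57.1 CPM, then 54.6, 57.1 and 53.2 CPM, with differences of 0.22 (SE 0.09, FDR 0.0508) and -0.14 (SE 0.09, FDR 0.205). PSMD9 was at 15.8, 15.9 and 16.7 CPM, then 13.8, 15.2 and 15.5 CPM, then 15.8, 15.5 and 15.05 CPM, with differences of -0.13 (SE 0.10, FDR 0.287) and 0.06 (SE 0.09, FDR 0.620). Neither passed the test in either comparison. Exons of AC069503.2 and WDR66 on the same strand cover 19.9% of the PSMD9 exon bases. In a ratio also chosen after its values were seen, PSMD10 counts were 1.92, 1.50 and 1.42 times those of PSMD9 at 20% O2, 3.63, 3.12 and 3.13 times at 1% O2, and 2.04, 2.05 and 1.99 times with 32-134D, with no overlap between the groups.

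A copy of PSMD10 shares its direction. Among 42 listed pseudogenes of these families, 6 had at least 10 counts, and PSMD10P2, a processed copy on chromosome 3 (186760693 to 186762050 in GRCh38), had the most. Its counts were 24, 8 and 30 in vehicle at 20% O2, 412, 198 and 272 in vehicle at 1% O2 and 61, 53 and 38 with 32-134D, log2 fold changes of 3.02 (FDR 1.90e-08) and -2.50 (FDR 7.18e-08). Over all libraries they made up 13.1% of the PSMD10 count, and this share was largest in vehicle at 1% O2. In CPM, PSMD10P2 was at 1.72, 1.26 and 0.912, then 10.9, 9.34 and 9.40, then 1.73, 1.78 and 1.74. Reads from near-identical copies can be split between them in counting, so the values of both are uncertain, and PSMD10P2 lies within an antisense gene, AC068631.1, with 125 counts. Of the antisense genes of other members, PSMA3-AS1 and PSMG3-AS1 fell in hypoxia, by 0.60 and 0.81 on the log2 scale, and rose by 0.46 and 0.41 with 32-134D. PSMD6-AS2 rose by 0.86 in hypoxia (FDR 0.0371). In hypoxia PSMG3-AS1 and PSMD6-AS2 thus moved in the direction of PSMG3 and PSMD6, and PSMA3-AS1 against that of PSMA3.

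Promoter windows from RefSeq (GRCh38.p14, 250 bases before to 50 after the transcript start) were found for 38 of the 44 tested members. No window was matched for PSMA7, PSMB1, PSMB6, PSMB7, PSMD4 and PSMG3. The window of PSMD10 (chrX:108091493-108091792, minus strand) is shown because the gene changed most, and that of PSMD7 (chr16:74296564-74296863, plus strand) because it led the lid. Capitals mark the core of the hypoxia response element (ACGTG or GCGTG, either strand) and the CCAAT box (CCAAT, either strand).
PSMD10: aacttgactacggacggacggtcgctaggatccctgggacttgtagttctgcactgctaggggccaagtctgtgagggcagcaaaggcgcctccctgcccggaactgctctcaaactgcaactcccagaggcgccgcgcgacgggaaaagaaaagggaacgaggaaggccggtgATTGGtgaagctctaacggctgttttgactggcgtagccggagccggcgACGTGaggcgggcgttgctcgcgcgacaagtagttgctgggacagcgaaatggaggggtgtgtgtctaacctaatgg
PSMD7: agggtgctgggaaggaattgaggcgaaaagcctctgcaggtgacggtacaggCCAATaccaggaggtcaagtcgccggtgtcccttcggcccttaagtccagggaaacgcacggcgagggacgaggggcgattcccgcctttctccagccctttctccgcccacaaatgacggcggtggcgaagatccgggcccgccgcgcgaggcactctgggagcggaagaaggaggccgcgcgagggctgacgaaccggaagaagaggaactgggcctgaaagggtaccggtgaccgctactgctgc
In PSMD10 the hypoxia response element core ACGTG lies 27 bases before the start and a CCAAT box, on the reverse strand, 76 bases before it. PSMD7 holds a CCAAT box 198 bases before the start and no hypoxia response core in these letters. Over all 46 windows of the tested members, 50.0% held a hypoxia response core, against 48.4% of the 35116 windows of the table, so the short core was as frequent elsewhere. Windows of members that rose in hypoxia by the FDR held it in 43.3% (13 of 30). The CCAAT box was in 39.1% of member windows and 34.6% of all windows. The antioxidant response element (TGACNNNGC, either strand), which NFE2L1 and NFE2L2 bind, was in 30.4% of member windows, 14 of 46, and in 13.3% of all windows, while among windows of members that rose it was in 16.7%.

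The activators and the inhibitor bind the core in place of the 19S particle or alter its use, and here the activators were the class that fell. PSME3, the nuclear activator PA28 gamma, stood at 213, 203 and 214 CPM at 20% O2, fell to 139, 131 and 130.3 CPM at 1% O2 and was at 200.4, 197 and 219.8 CPM with 32-134D. Its log2 fold changes were -0.66 (SE 0.07, FDR 1.36e-06), a 1.57-fold fall, and 0.62 (SE 0.07, FDR 3.60e-06), a 1.54-fold rise. The 32-134D libraries of PSME3 overlapped those at 20% O2 and neither overlapped vehicle at 1% O2. PSME2, a subunit of the interferon-inducible activator PA28 alpha-beta, went from 76.4, 61.7 and 63.6 CPM to 42.3, 43.5 and 42.7 CPM and stood at 58.2, 58.8 and 52.6 CPM with 32-134D. Its changes were -0.65 (SE 0.09, FDR 1.68e-05) and 0.40 (SE 0.09, FDR 0.00143), and the 3 groups did not overlap. Its partner in that activator, PSME1, did not go with it on the TMM scale. PSME1 was at 69.8, 66.6 and 63.0 CPM, then 61.3, 67.1 and 69.1 CPM, then 59.4, 58.4 and 48.8 CPM. Its difference in hypoxia was -0.01 (SE 0.09, FDR 0.920), and it decreased by 0.24 with 32-134D (SE 0.09, FDR 0.0335). On the scale of the total library size PSME1 was lower in hypoxia, at -0.23 (FDR 0.0414), and its difference with 32-134D was -0.055 (FDR 0.642). The fall of PSME1 with 32-134D passed the FDR in 6 of 18 alternatives. PSME4, the activator PA200, was at 152, 155 and 161 CPM, then 144, 136 and 128 CPM, then 161, 167 and 182 CPM, changes of -0.20 (SE 0.07, FDR 0.0345) and 0.32 (SE 0.07, FDR 0.00209). The inhibitor PSMF1 followed the lid, from 146, 151 and 151 CPM to 204, 212 and 204 CPM and to 162, 154 and 166 CPM with 32-134D, changes of 0.47 (SE 0.06, FDR 1.94e-05) and -0.36 (SE 0.06, FDR 2.42e-04). The falls of PSME2 and PSME3 in hypoxia passed both thresholds in 18 of 18 alternatives each, at values from -0.87 to -0.61 for PSME2 and from -0.87 to -0.63 for PSME3, at the threshold of 1.5-fold.

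**Figure D4:**
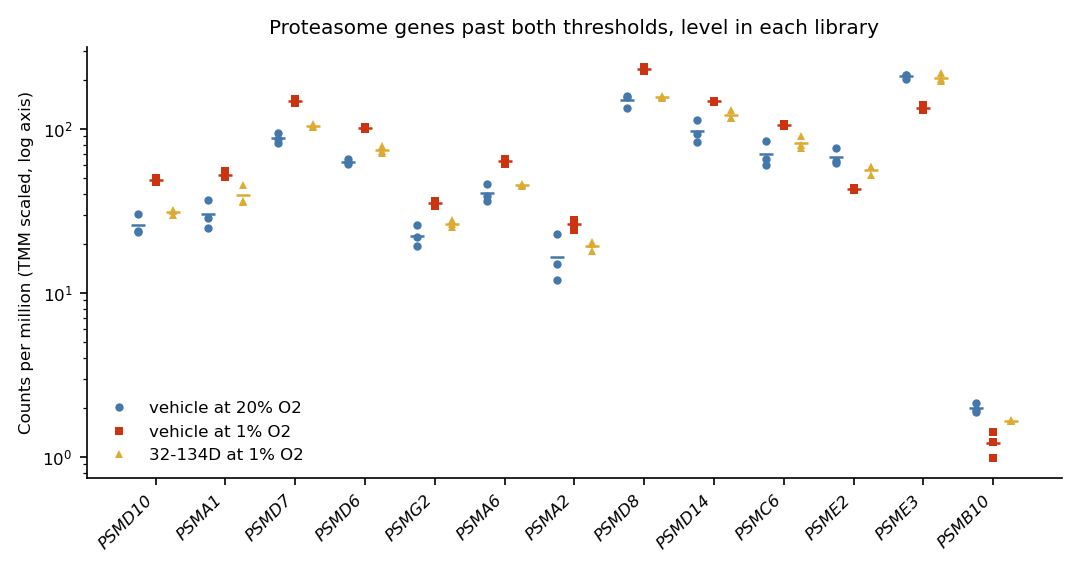
Level in each library, in TMM-scaled CPM on a log axis, of the 13 proteasome genes past both thresholds in at least 1 comparison, with a bar at the mean of the 3 libraries of each condition. From PSMD10 to PSMC6 the libraries of vehicle at 1% O2 lie above those of vehicle at 20% O2, and for PSME2, PSME3 and PSMB10 they lie below.

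The windows of PSME2 (chr14:24146561-24146860, minus strand) and PSME3 (chr17:42833147-42833446, plus strand) are shown because these genes fell while the core and lid rose. Capitals mark the same motifs and the antioxidant response element.
PSME2: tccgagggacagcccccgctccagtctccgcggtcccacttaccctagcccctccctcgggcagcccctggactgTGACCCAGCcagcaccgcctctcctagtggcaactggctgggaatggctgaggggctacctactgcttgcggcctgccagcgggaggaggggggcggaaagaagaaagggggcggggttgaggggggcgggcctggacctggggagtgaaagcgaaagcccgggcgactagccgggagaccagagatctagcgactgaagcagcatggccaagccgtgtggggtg
PSME3: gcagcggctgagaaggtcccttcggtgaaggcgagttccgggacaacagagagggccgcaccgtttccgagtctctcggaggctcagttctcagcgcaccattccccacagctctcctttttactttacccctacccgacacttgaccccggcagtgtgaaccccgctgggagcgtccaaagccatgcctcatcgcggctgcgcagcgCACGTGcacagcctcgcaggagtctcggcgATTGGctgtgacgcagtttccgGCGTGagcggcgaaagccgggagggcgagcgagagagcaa
PSME3 holds the hypoxia response core in a palindrome, on both strands, 41 to 42 bases before the start and again 10 bases after it, with a CCAAT box 12 bases before the start. PSME2 holds an antioxidant response element 175 bases before the start and no hypoxia response core. A core of the hypoxia response element was thus present in the window of a gene that fell, PSME3, and of a gene that rose, PSMD10.

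The chaperones PSMG1, PSMG2, PSMG3 and PSMG4 assemble the alpha ring in pairs. PSMG2 rose and its partner PSMG1 did not. PSMG2 went from 25.8, 22.0 and 19.3 CPM to 35.8, 36.4 and 33.9 CPM and was at 26.5, 25.1 and 27.8 CPM with 32-134D, changes of 0.67 (SE 0.11, FDR 6.97e-05) and -0.42 (SE 0.10, FDR 0.00301). PSMG1 was at 28.2, 22.8 and 22.2 CPM, then 26.1, 21.2 and 24.2 CPM, then 27.9, 27.7 and 27.7 CPM, with differences of -0.03 (SE 0.11, FDR 0.837) and 0.22 (SE 0.11, FDR 0.108). The groups of PSMG1 overlapped in hypoxia. Exons of CEP76 and SPIRE1 on the opposite strand cover 16.7% of the PSMG2 exon bases. In the other pair, PSMG3 fell by 0.21 in hypoxia (SE 0.08, FDR 0.0339), from 76.9, 67.0 and 67.8 CPM to 58.6, 65.0 and 59.9 CPM, and was at 63.2, 61.9 and 62.9 CPM with 32-134D. PSMG4 was between 11.9 and 14.7 CPM in all 9 libraries, with differences of -0.01 (SE 0.11, FDR 0.950) and 0.02 (SE 0.11, FDR 0.922). Their difference from PSMG2 is a description, since no test of it was run.

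Genes of proteins that work with the proteasome under other names were also higher in hypoxia. All 12 genes of that list rose in hypoxia by the FDR and 6 past both thresholds, with a median log2 fold change of 0.62. By the same rules 27.9% and 19.5% of all genes tested rose. With 32-134D 8 fell by the FDR, 4 of them past both thresholds, with a median of -0.51, against 25.5% and 13.7% of all genes. The 6 were ADRM1 (0.75), the second ubiquitin receptor of the 19S particle, POMP (0.72), the maturation factor of the core, TXNL1 (1.24), a thioredoxin-like protein bound to the 19S particle, AKIRIN2 (0.99), which brings proteasomes into the nucleus, ZFAND5 (1.39), an activator of the complex, and FBXO7 (0.85), a partner of PSMF1. ADRM1 was at 256, 242 and 244 CPM, then 402, 423 and 424 CPM, then 283, 287 and 298 CPM, and none of the 3 groups overlapped. With 32-134D, TXNL1, AKIRIN2, ZFAND5 and FBXO7 fell past both thresholds, by 0.81, 0.71, 0.82 and 0.61, and ADRM1 and POMP by 0.52 and 0.43.

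Of the 8 genes of the shuttles and the VCP unfoldase with its cofactors, 4 rose and 2 fell by the FDR. UBQLN1 (1.06) and UFD1 (0.60) rose past both thresholds and NPLOC4, the partner of UFD1, fell by 0.56. The list median, 0.16, turned to -0.06 on the scale of the total library size and to -0.04 with trends over length and GC removed.

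The genes that activate NFE2L1, the factor known to raise proteasome genes when the activity falls short, were split. NFE2L1 rose from 339, 388 and 395 CPM to 615, 625 and 628 CPM and stood at 445, 446 and 575 CPM with 32-134D, changes of 0.73 (SE 0.10, FDR 1.23e-05) and -0.35 (SE 0.10, FDR 0.00734). NGLY1, which strips its sugars, rose by 1.85 and fell by 1.45 with 32-134D. DDI2, the protease that cuts it, fell by 0.89, and SEL1L, part of the ligase that extracts it from the endoplasmic reticulum, by 0.71, and both rose with 32-134D, by 0.85 and 0.81. SYVN1, the partner of SEL1L, was at -0.11 (FDR 0.316). Of the 5 genes 2 were thus higher and 2 lower past both thresholds in hypoxia.

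VHL was at 139, 126 and 134 CPM, then 167, 147 and 138 CPM, then 138, 137 and 143 CPM, with differences of 0.18 (SE 0.08, FDR 0.0643) and -0.12 (SE 0.08, FDR 0.242). Of the 5 genes of its ligase 3 rose by the FDR, ELOB (0.27), ELOC (0.47) and CUL2 (0.28), with a median of 0.27 that turned to -0.04 with trends over length and GC removed.

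Other multi-subunit complexes of the cytosol are given for comparison. The COP9 signalosome, which is related to the proteasome lid, had 6 of 10 genes higher and 1 lower in hypoxia by the FDR, with a median of 0.60, translation factor eIF3, which shares its fold, 10 of 13 higher with a median of 0.47, and the chaperonin CCT 8 of 8 higher with a median of 0.83. With 32-134D the medians were -0.44, -0.28 and -0.52. Set beside these, the 8 lid genes had medians of 0.58 and -0.32 and the 7 alpha ring genes 0.54 and -0.42. The medians of the lid and the alpha ring lay within the range of the other 3 complexes in both comparisons.

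**Figure D5:**
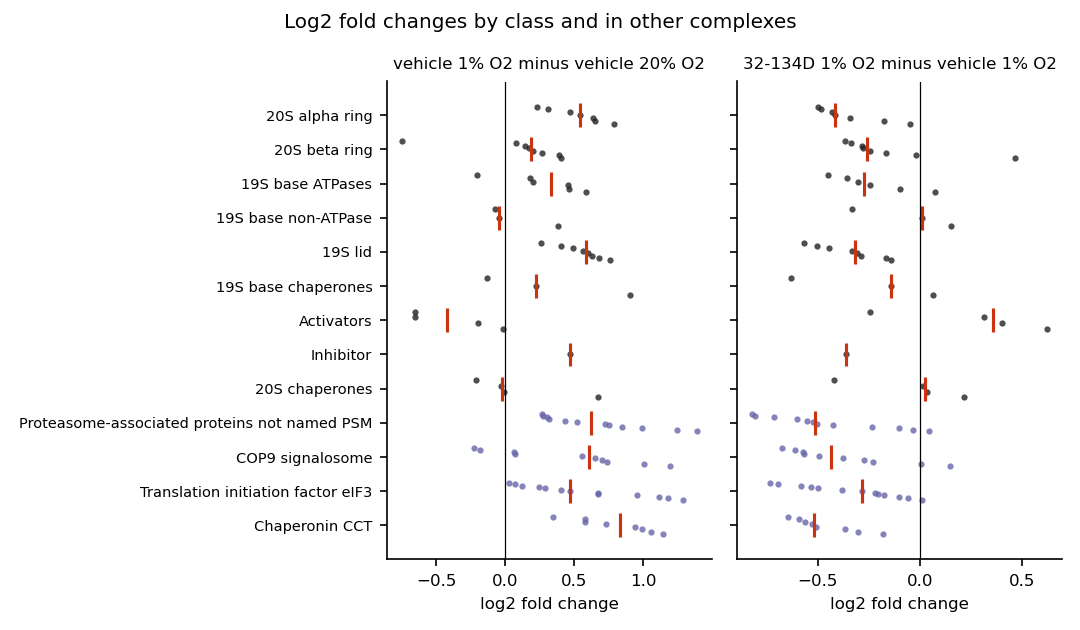
Log2 fold change of each gene (points) and the median (bar) by structural class of the proteasome, and in proteasome-associated proteins and 3 other complexes, for hypoxia on the left and 32-134D on the right. The medians of the alpha ring, the lid, COP9, eIF3 and CCT lie to the right of 0 in hypoxia and to the left with 32-134D, and that of the activators lies on the opposite side in both panels.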

How the data were processed

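RNA of 9 Hep3B cultures was sequenced, 3 per condition, and per the labels the authors deposited read counts per gene, not normalized, made from reads aligned to GRCh38 with STAR and counted with featureCounts. The counting used an Ensembl annotation later than the GENCODE v29 used here for positions, and its strand setting is not given in the sources used here. The proteasome genes and the other gene lists were chosen with earlier results of these data known.

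Genes with at least 10 counts over the 9 libraries were fitted together with edgeR 4.0.16 (R 4.3.3, limma 3.58.1), using TMM factors and quasi-likelihood F tests, and p-values were adjusted by Benjamini-Hochberg over all 22672 genes. A gene was called at an FDR below 0.05 and a fold change above 1.5. SEs were the log2 fold change divided by the square root of F. DESeq2 1.42.0, other scalings and filters, a replicate block and libraries left out were alternatives. The fit was tested on simulated data. Exon length, GC content and positions came from GENCODE v29. Named genes were those called in any comparison, the extremes of each class, and members with a set role, such as catalytic subunits, activators and chaperones. Same-numbered replicates did not deviate together (correlations from -0.175 to 0.084), so numbers were not used as pairs. Total counts, 6013980 to 40549699, limit the precision for PSMB10 most. P-values judge the differences between groups against the spread between replicate cultures of this cell line, estimated over the 3 groups together. The lists of ubiquitin genes and of interferon response genes are not reported here.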

Additional observations from a re-analysis of the deposited data

How the results depend on the processing

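The count of members called in hypoxia depended on scaling and thresholds. From 10 higher it became 1 with total library size, 3 when each library had to hold 10 counts, 0 with length and GC trends removed, 0 above 2-fold, and 4 to 11 with single libraries left out, and from 3 lower it became 0 above 2-fold and 2 to 3 with libraries left out. By the FDR alone, 27 higher became 17 with total library size (21 to 30 with libraries left out) and 6 lower became 10, or 3 without a filter on low counts (3 to 6). The median of 0.29 became 0.0730 with total library size, 0.24 with RLE factors and with DESeq2, 0.18 with 10 counts in each library, 0.0858 with trends removed, and 0.23 to 0.35 with libraries left out. With 32-134D, 1 called higher became 3 with total library size or trends removed and 0 above 2-fold or without the 2 doubted libraries (0 to 2 with single libraries left out), and 1 called lower became 0 with total library size, RLE factors, DESeq2, 10 counts in each library, trends removed, only the groups compared, or above 2-fold (0 to 2). By the FDR alone, 3 higher became 10 with total library size, 9 with trends removed, 7 with 10 counts in each library and 5 with RLE factors, DESeq2 or only the groups compared (3 to 5 with libraries left out), while 25 lower became 8 and 10 with total library size and trends removed, and 17 with 10 counts in each library (14 to 26; 14 without replicate 3 of vehicle at 1% O2, 15 without replicate 1 of 32-134D). The median of -0.26 became -0.0736 with total library size, -0.20 with RLE factors, DESeq2 or only the groups compared, -0.17 with 10 counts in each library, -0.0578 with trends removed, and -0.28 to -0.18 with libraries left out. Against 20% O2, 3 higher by the FDR alone became 0 with total library size, only the groups compared or without the 2 doubted libraries, 5 with RLE factors or no filter, 6 with DESeq2, 1 with trends removed, and 0 to 13 with libraries left out. That median of 0.08 became 0.0294 without the 2 doubted libraries and 0.0436 to 0.135 with single libraries left out. Causes were not tested.

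A replicate block left the calls in hypoxia at 10 and 3 and those with 32-134D at 1 and 1, and reduced the 3 against 20% O2 by the FDR alone to 1; replicate numbers did not pair the libraries. Among values past the FDR in either of the settings compared, signs reversed in hypoxia for PSMA3 (-0.17), PSMA5 (-0.13), PSMB1 (-0.0019), PSMB2 (-0.0556) and PSMB4 (-0.00090) with trends removed and for PSMB2 (-0.0110) and PSMC4 (-0.0132) with total library size, and with 32-134D for PSMB7 (0.24) with trends removed. Over single members and 18 alternatives, 2110 values kept their side of the FDR threshold, 183 were no longer below it, 75 came below it and 8 reversed. A further 86 values that passed the FDR in neither setting changed sign.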
